A study of Mus musculus with 11 samples.

Results

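Of the 2886 Foxp3 binding peaks mapped in mouse regulatory T (Treg) cells, 296 (10.3%, 95% interval 9.17 to 11.4) had no strong binding of Elf1 or Ets1 nearby. They were chosen by their midpoint, which lay more than 300 bp from each of the 10000 highest-scoring positions in 4 lists: Elf1 and Ets1 in Treg cells, and Elf1 and Ets1 in CD4 T cells without Foxp3. The remaining 2590 peaks are called the other Foxp3 peaks. The maps came from chromatin immunoprecipitation followed by sequencing (ChIP-seq) of T cells from lymph nodes and spleens of mice about 8 weeks old, separated by whether they carried green fluorescent protein as a Foxp3 reporter. Foxp3-positive CD4+ T cells, called Treg, gave the Foxp3, Elf1, Ets1 and Cbfb maps used here, and CD4+ Foxp3-negative T cells, called CD4, a further Elf1 and a further Ets1 map. The labels used here give no strain. The authors pooled the Foxp3 list from their replicates, and each Elf1, Ets1 and Cbfb list rested on 1 library, so no comparison below has a replicate check and no p-value is given. Intervals are exact Clopper-Pearson 95% intervals and cover counting error only.

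Foxp3 is the forkhead transcription factor that defines the Treg lineage and is needed for its suppressive function. Elf1 and Ets1 belong to the ETS family, DNA-binding factors that T cells express with and without Foxp3 and that occupy many of their enhancers and promoters. Cbfb does not bind DNA itself but stabilises its Runx partners on DNA, and Runx1 is known to associate with Foxp3.

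Strong binding here means a high rank by score within a list. Most of the 296 peaks had a position at rank 20000 or better in at least 1 list. Closeness in rank is not closeness in score. The lowest strong score was 6.78 for Treg Elf1, 6.14 for Treg Ets1, 15.1 for CD4 Elf1 and 11.5 for CD4 Ets1. The highest-scoring weaker positions at these peaks had median scores of 3.97, 4.98, 8.47 and 8.88 in the same order. The best-ranked Elf1 or Ets1 position within 300 bp, at a false discovery rate (FDR) of at most 0.01 in the authors' files, stood between ranks 10001 and 12000 at 68 peaks and between 12001 and 20000 at 123. At 53 peaks it stood between 20001 and 40000, at 12 between 40001 and 80000, and at 6 lower still. The last 34 peaks (11.5%, 8.09 to 15.7) had no Elf1 or Ets1 position at this FDR; by the rule these were also the sole such peaks among all Foxp3 peaks (1.18%). The label therefore describes weaker binding more often than missing binding. With the 20000 highest positions of each list counted as strong, 105 of the 296 remained, and ranking positions by fold enrichment in place of score left 1560 Foxp3 peaks without a strong position.

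In distance there was no gap at the limit either. The 3 peaks just inside it had their nearest strong position at 305, 306 and 306 bp, and the 3 just outside at 297, 295 and 294 bp. Over the 296 peaks the nearest strong position lay at a median of 5742.5 bp, with quartiles of 1105 and 21020 bp. It lay between 300 and 400 bp away at 27 peaks and between 400 bp and 1 kb at 44, so that these peaks flanked a strongly bound site. At 117 peaks (39.5%, 33.9 to 45.3) the nearest strong position was more than 10 kb away, and at 39 of them more than 50 kb.

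Each of the 4 Elf1 and Ets1 lists had a weaker position at between 45.3 and 54.4% of the 296 peaks. Treg Elf1 was present within 300 bp at 161 peaks (54.4%, 48.5 to 60.2), where 85.2% of all Foxp3 peaks had such a position at the same FDR. Treg Ets1 was present at 134 (45.3%, 39.5 to 51.1), against 83.5% of all Foxp3 peaks. CD4 Elf1 was present at 161 (54.4%, 48.5 to 60.2), against 88.9%, and CD4 Ets1 at 143 (48.3%, 42.5 to 54.2), against 89%. Because the rule removed the strong positions, the gaps to all Foxp3 peaks were fixed in part by the choice and nothing is read from them.

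A closer comparison used, for each list, the other Foxp3 peaks that also lacked a strong position of that list and were kept out by a different one. These peaks had a weaker position more often in all 4 lists. The shares were 71.5% (68.6 to 74.2, of 1020 peaks) for Treg Elf1 and 62.2% (58.8 to 65.5, of 830) for Treg Ets1. For CD4 Elf1 the share was 78.9% (76.1 to 81.6, of 882), and for CD4 Ets1 69.6% (65.6 to 73.5, of 543). A peak without strong binding of any of the factors thus had weaker binding of a given factor less often than a peak that lacked strong binding of that factor alone or with some of the others. The same 4 libraries define both sets, so this is a description.

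**Figure D1:**
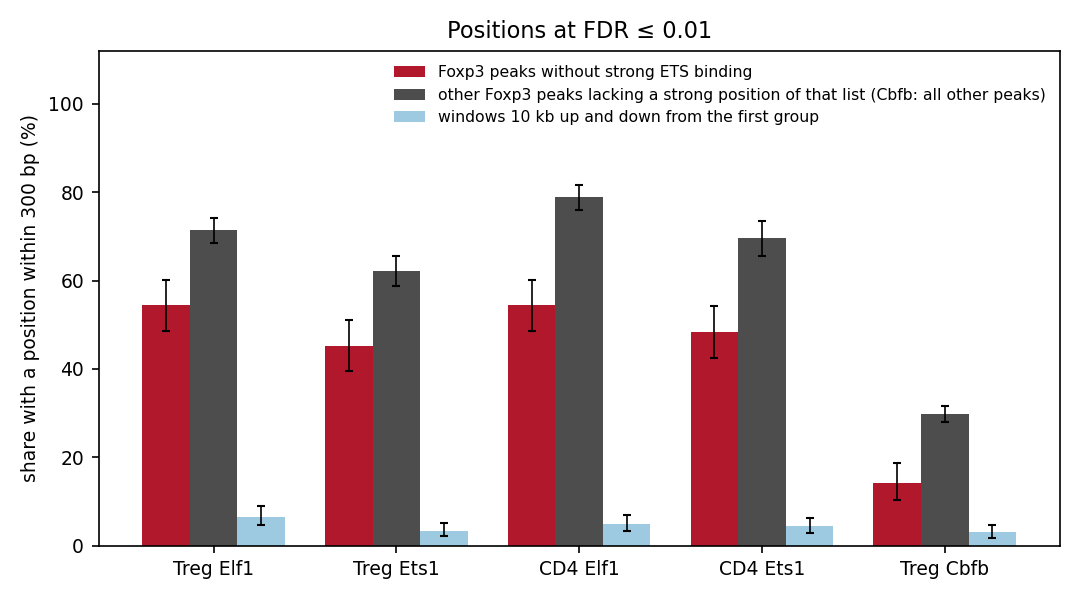
Bars show the share of Foxp3 peaks with a position at FDR ≤ 0.01 within 300 bp of the midpoint, with exact 95% intervals, for each of the 5 lists: red for the 296 peaks without strong ETS binding, grey for other Foxp3 peaks lacking a strong position of that list (for Cbfb, all 2590 other peaks), and blue for windows 10 kb up and down from the 296 peaks, in which only ranks below the strong ones count for Elf1 and Ets1. The red bars lie between 45.3 and 54.4% for Elf1 and Ets1 and at 14.2% for Cbfb, below the grey and above the blue bars in every list.

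Weaker Elf1 and Ets1 positions were gathered at the Foxp3 peaks and not spread over the neighbourhood. At least 1 of the 4 lists had a position at 262 of the 296 peaks (88.5%, 84.3 to 91.9), where the share over all Foxp3 peaks was 98.8%. Windows of the same size placed 10 kb up and 10 kb down from the 296 peaks held such a weaker position in 90 of 592 cases (15.2%, 12.4 to 18.4). For single lists the share in those windows ran from 3.38% (2.08 to 5.17) for Treg Ets1 to 6.59% (4.73 to 8.90) for Treg Elf1.

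The same was seen in 100 bp steps from the midpoint. CD4 Ets1 had 35.5 weaker positions per 100 peaks in the first 100 bp, against a mean of 1.93 per step between 1 and 2 kb, a ratio of 18.4. The ratio was 17.3 for CD4 Elf1, 11.2 for Treg Ets1 and 8.64 for Treg Elf1. Around the other Foxp3 peaks it was lower for these ranks, from 4.05 for CD4 Ets1 to 6.84 for CD4 Elf1, but many of those peaks have a strong position in place of a weaker one.

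**Figure D2:**
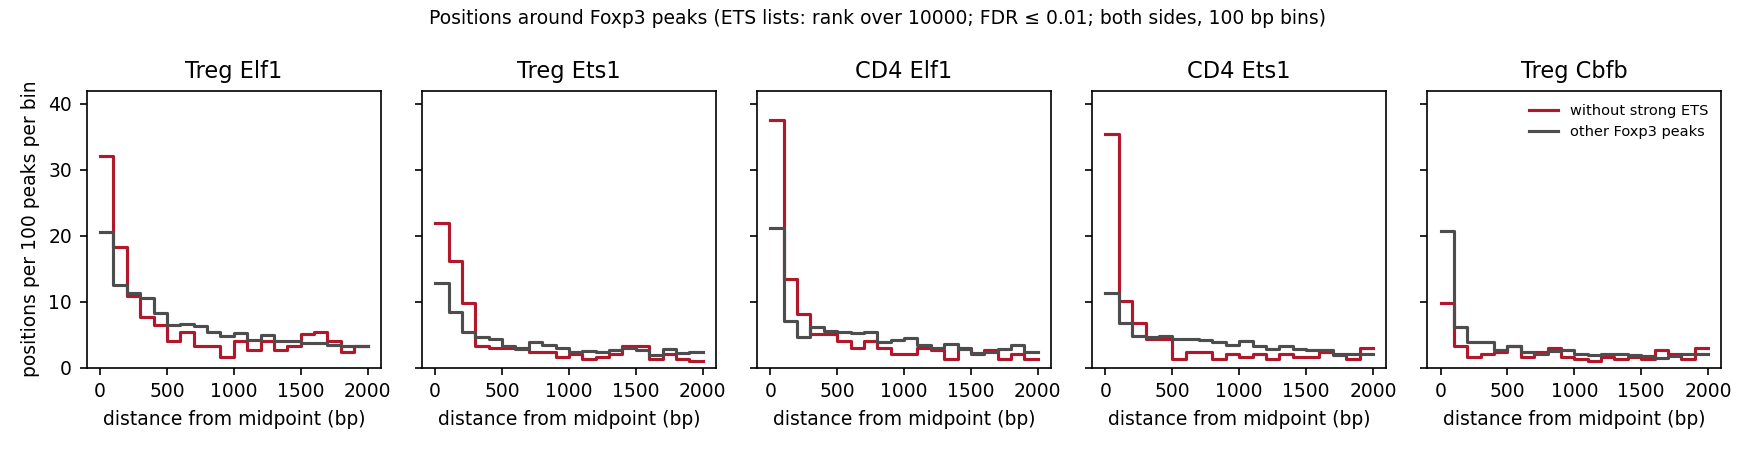
Each panel gives, for 1 list, the number of positions at FDR ≤ 0.01 per 100 Foxp3 peaks (vertical axis) in 100 bp bins of distance from the peak midpoint, both sides added (horizontal axis, bp), with ranks over 10000 for Elf1 and Ets1 and all ranks for Cbfb. Red lines are the 296 peaks without strong ETS binding and grey lines the 2590 other peaks. All lines fall from the first bin to a level near 2 to 4 per bin, and the first bin is higher in red for Elf1 and Ets1 (for CD4 Elf1, 37.5 against 21.1) and higher in grey for Cbfb (20.7 against 9.80).

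The weaker positions lay close to the Foxp3 midpoint, in the CD4 lists more so than in the Treg lists. The median offset was 55 bp for CD4 Ets1 and 59 bp for CD4 Elf1, against 97 bp for Treg Elf1 and 103.5 bp for Treg Ets1. Of the CD4 Ets1 positions 72.7% were within 100 bp of the midpoint, and of the Treg Ets1 positions 48.5%. At the other Foxp3 peaks the CD4 positions were again the nearer ones, with a smaller gap, at 64, 57, 77 and 85 bp for CD4 Ets1, CD4 Elf1, Treg Elf1 and Treg Ets1. The median ranks of the positions at the 296 peaks differed in the same direction, at 16655 for CD4 Ets1, 17020 for CD4 Elf1, 21130 for Treg Ets1 and 37214 for Treg Elf1, and their part in the offsets was not tested. Peaks are not replicates and each list is 1 library, so whether the difference belongs to the cell type or to the libraries cannot be told apart.

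Enrichment at these positions was low to moderate. Fold enrichment, the authors' maximum likelihood estimate over a control that the sources used here do not name, had a median of 5.38 for Treg Elf1 (lowest 1.11, highest 105), 3.77 for Treg Ets1 (0.856 to 34.0), 4.97 for CD4 Elf1 (0.920 to 74.5) and 4.34 for CD4 Ets1 (0.772 to 37.6). The 10000 strong positions had medians of 13.2, 5.99, 15.6 and 8.50 in the same order. Over all positions that passed the FDR limit but ranked below the strong ones, the medians were 5.71, 3.60, 3.87 and 3.64. Positions of that kind at the other Foxp3 peaks had medians of 5.94, 4.66, 5.92 and 4.77. The medians at the 296 peaks were thus lower than at the other Foxp3 peaks in all 4 lists, and higher than over the whole genome in all but Treg Elf1. Ranks were not alike: in the same order their medians were 37214, 21130.5, 17020 and 16655 at the 296 peaks. At the other Foxp3 peaks they were 24379, 20342.5, 14604 and 14691.5. At peaks only the highest-scoring position per window counted, and over the genome all did. The part of rank in the fold differences was not tested. Fold over 10 occurred at 27 of 161 peaks for Treg Elf1, 9 of 134 for Treg Ets1, 24 of 161 for CD4 Elf1 and 15 of 143 for CD4 Ets1. The share over all Foxp3 peaks was not counted, so nothing is read from these counts.

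The 4 lists did not mark the same peaks. One list had a position at 63 peaks (21.3%), 2 lists at 93 (31.4%), 3 at 74 (25%) and all 4 at 32 (10.8%), where the shares over all Foxp3 peaks were 3.29, 9.39, 20 and 66.1%. Elf1 and Ets1 were both present, in either cell type, at 165 peaks (55.7%, 49.9 to 61.5), Elf1 without Ets1 at 54 (18.2%) and Ets1 without Elf1 at 43 (14.5%); over all Foxp3 peaks these shares were 91.5, 2.95 and 4.37%. Both cell types had Elf1 or Ets1 at 158 peaks (53.4%, 47.5 to 59.2), Treg alone at 56 (18.9%, 14.6 to 23.9) and CD4 alone at 48 (16.2%, 12.2 to 20.9). Over all Foxp3 peaks the shares were 92% for both, 3.5% for Treg alone, 3.33% for CD4 alone and 1.18% for neither, and since the rule used strong positions of both cell types nothing is read from the gaps. For Elf1 taken by itself, 103 peaks had a position in both cell types, 58 in Treg alone and 58 in CD4 alone (34.8, 19.6 and 19.6%, against 79.7, 5.58 and 9.22% of all Foxp3 peaks). For Ets1 these numbers were 69, 65 and 74 (23.3, 22.0 and 25%, against 76.6, 6.9 and 12.4%).

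The balance between the cell types depended on list length. At this FDR the Treg Elf1 list held 157731 positions, the Treg Ets1 list 61761, the CD4 Elf1 list 53580 and the CD4 Ets1 list 42040. With each list taken to rank 40000, a choice made after the data had been seen, Treg Elf1 was left at 84 of the 296 peaks (28.4%, 23.3 to 33.9, against 74% of all Foxp3 peaks) and Treg Ets1 at 109 (36.8%, 31.3 to 42.6, against 80.3%). CD4 Elf1 was left at 155 (52.4%, 46.5 to 58.2, against 88.2%) and CD4 Ets1 at 142 (48.0%, 42.2 to 53.8, against 88.8%). Elf1 or Ets1 was then in CD4 alone at 93 peaks (31.4%, 26.2 to 37.0), in Treg alone at 41 (13.9%, 10.1 to 18.3), in both at 110 and in neither at 52. Over all Foxp3 peaks the shares at this length were 6.79% for CD4 alone, 3.22% for Treg alone, 88.2% for both and 1.8% for neither, so CD4 alone was the more frequent there too.

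Where a factor was present in both cell types, some peaks had the higher fold enrichment in Treg and others in CD4. Over the 103 peaks with Elf1 in both, the Treg minus CD4 difference of log2 fold enrichment had a median of 0.057 (SD over peaks 1.30), and Treg was higher at 55. Over the 69 peaks with Ets1 in both the median was -0.25 (SD 1.13), and Treg was higher at 30. Single peaks differed in either direction, and fold values of different libraries of unknown depth are set side by side here.

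**Figure D3:**
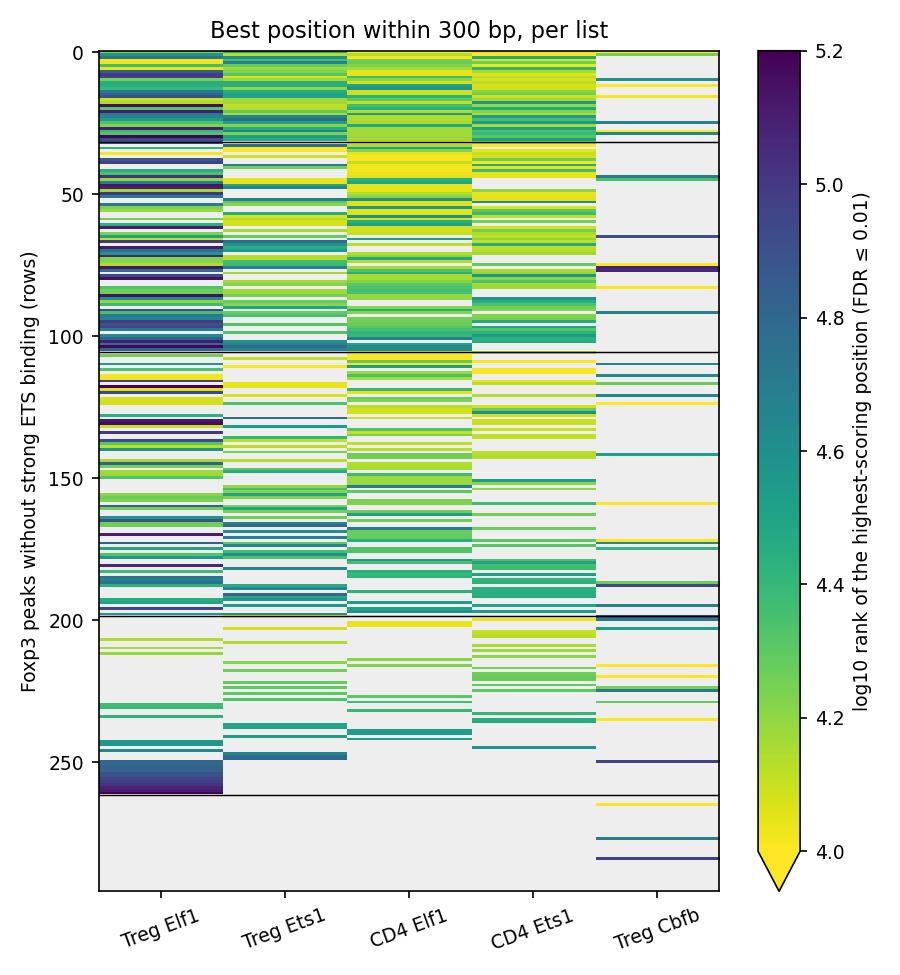
Rows are the 296 Foxp3 peaks without strong ETS binding, ordered by the number of Elf1 and Ets1 lists with a position and then by best rank, with black lines between 4, 3, 2, 1 and 0 lists; columns are the 5 lists. Colour gives the log10 rank of the highest-scoring position within 300 bp at FDR ≤ 0.01, light yellow being the highest rank and pale grey no position; only Cbfb can hold ranks of 10000 or better. The blocks hold 32, 74, 93, 63 and 34 peaks, and Cbfb positions, at 42 peaks, occur in every block.

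Single peaks show the range. The peak farthest from any strong position lay on chromosome 3 between 53267504 and 53267704, with the nearest strong position, of Treg Ets1, 380583 bp away and the next Foxp3 peak 533721 bp away. It still had CD4 Elf1 at rank 10578 only 4 bp from its midpoint (7.62-fold), Treg Elf1 at rank 28140 (10.6-fold, 148 bp) and CD4 Ets1 at rank 23271 (10.1-fold, 137 bp). The next farthest were on chromosome 12 between 39504935 and 39505135 (373588 bp) and on chromosome 6 between 116157916 and 116158116 (354516 bp). The first of these had both Elf1 lists and the second had both Elf1 lists and CD4 Ets1 at FDR ≤ 0.01. Distance from strong ETS binding was therefore not accompanied by a lack of weaker binding at these peaks. Over the whole set, a weaker position was present at 87.2% (79.7 to 92.6) of the 117 peaks more than 10 kb from strong binding and at 89.4% (83.9 to 93.5) of the 179 nearer ones.

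The peaks at the other end lay beside strongly bound sites. On chromosome 11 between 34584936 and 34585136, strong CD4 Elf1 was 305 bp away and another Foxp3 peak, one with strong ETS binding, 140 bp away. Within 300 bp this peak had CD4 Ets1 at rank 14749 (6.42-fold, 34 bp) and no Elf1. On chromosome 4 between 82974304 and 82974504, strong Treg Elf1 lay 306 bp away and the next Foxp3 peak 412 bp away, with Treg Ets1 at rank 10103 (3.33-fold). The third, on chromosome 11 between 95218092 and 95218292, had strong Treg Elf1 at 306 bp but no other Foxp3 peak within 356137 bp. It had CD4 Elf1 at rank 10499 (4.31-fold, 258 bp), CD4 Ets1 at rank 10876 (5.72-fold, 16 bp) and Treg Ets1 at rank 17775 (4.66-fold, 17 bp).

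Some peaks missed the limit by a few ranks. The highest-ranked weaker position of CD4 Elf1 stood at rank 10007, at the peak on chromosome 13 between 49402650 and 49402850 (2.98-fold). For CD4 Ets1 it stood at 10045, on chromosome 9 between 21171916 and 21172116 (6.34-fold). The highest Treg Ets1 position stood at rank 10090, on chromosome 16 between 10844166 and 10844366 (5.99-fold, 1 bp from the midpoint). The highest Treg Elf1 position stood at rank 10227, on chromosome 1 between 72353967 and 72354167 (3.75-fold). Fold enrichment at these 4 positions ran from 2.98 to 6.34.

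Cbfb, which the rule did not use, was found less often at these peaks than at the other Foxp3 peaks. A Treg Cbfb position at FDR ≤ 0.01 lay within 300 bp of 42 of the 296 peaks (14.2%, 10.4 to 18.7) and of 770 of the 2590 other peaks (29.7%, 28.0 to 31.5); over all Foxp3 peaks the share was 28.1%. Among the 10000 highest Cbfb positions the shares were 3.72% (1.87 to 6.55; 11 peaks) and 12.0% (10.7 to 13.3; 310 peaks), with 11.1% over all. The intervals did not overlap in either case. They treat peaks as independent, however, and neighbouring peaks can share a Cbfb position. In windows 10 kb up and down from the 296 peaks, Cbfb was present in 3.04% (1.81 to 4.76) of cases, and from the other peaks in 4.65% (4.10 to 5.26), so the 296 peaks had less Cbfb than the others but more than their own surroundings.

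Cbfb presence also varied with the number of Elf1 and Ets1 lists. Among the other Foxp3 peaks it was 21.4% (17.6 to 25.6) where 1 list was strong and 30.8% (27.3 to 34.4) where 2 were. It was 28.7% (25.2 to 32.3) where 3 were strong and 33.9% (30.7 to 37.2) where all 4 were. These shares did not rise steadily, and the intervals for 2, 3 and 4 lists overlapped. The 296 peaks, at 14.2% (10.4 to 18.7), stood below all of these. Their interval overlapped that of the peaks with 1 strong list, and the difference was not tested. Within the 296 peaks it was 8.82% (1.86 to 23.7) of the 34 peaks with no weaker position and 25% (11.5 to 43.4) of the 32 peaks with all 4. With 1, 2 and 3 lists the shares were 15.9, 14.0 and 10.8%, and all 5 intervals overlapped. Cbfb without any Elf1 or Ets1 position at this FDR occurred at 3 peaks, and by the rule it could not occur at the other Foxp3 peaks. How much of the lower Cbfb share goes with peak strength was not tested, because the Foxp3 list carries no score.

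Where Cbfb was present its fold enrichment had the same median as at the other Foxp3 peaks, 4.11 (lowest 1.12 and highest 23.5 in the 296). Its median rank was 32827, against 18715 at the other Foxp3 peaks. The highest-ranked of these Cbfb positions, at rank 1246 (11.0-fold), lay at the peak on chromosome 1 between 36823815 and 36824015, with weaker Treg Elf1, CD4 Elf1 and CD4 Ets1. The next, at rank 1417 (6.79-fold, 17 bp from the midpoint), lay on chromosome 3 between 130513110 and 130513310, where CD4 Ets1 at rank 28200 was the sole Elf1 or Ets1 position at this FDR. The third, at rank 1780, lay on chromosome 2 between 13496614 and 13496814, 383 bp from another of the 296 peaks. That neighbour shared the same Cbfb position.

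All 5 lists had a position at 8 of the 296 peaks (2.70%, 1.17 to 5.26). Over all Foxp3 peaks, strong positions included, 66.1% had all 4 Elf1 and Ets1 lists and 28.1% had Cbfb. Their joint share was not counted, and the rule itself lowers the number among the 296. By the sum of ranks the first was on chromosome 8 between 125558148 and 125558348, with CD4 Elf1 at rank 10018 (4.60-fold), CD4 Ets1 at 11580 (8.50-fold), Treg Elf1 at 17868 (18.8-fold), Treg Ets1 at 31693 (3.77-fold) and Cbfb at 1800 (3.09-fold). The second was on chromosome 17 between 46210882 and 46211082, with CD4 Ets1 at rank 10207 (13.4-fold) and Treg Ets1 at 13269 (9.99-fold). The third, on chromosome 12 between 107549319 and 107549519, had 35.2-fold CD4 Ets1, 17.1-fold Elf1 in both cell types, 11.3-fold Treg Ets1 and 6.10-fold Cbfb, although its nearest strong position was 116650 bp away. At this peak fold enrichment was above the median of the strong positions in all 4 ETS lists, while its scores ranked between 11811 and 17615.

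At the opposite end, 31 of the 296 peaks (10.5%, 7.23 to 14.5) had no position of any of the 5 lists at FDR ≤ 0.01. Among the 2590 other Foxp3 peaks the number was 0, as the rule gives each of them a strong position. Of the 31, 7 (2.36% of the 296, 0.956 to 4.81) had none at all among the deposited positions, which the rule likewise bars at the other peaks. The most isolated of these 7 was on chromosome 8 between 13159105 and 13159305, where the nearest position of any list was 5646 bp away, the nearest strong position 53694 bp and the next Foxp3 peak 54425 bp. Next were the peaks on chromosome 10 between 80453904 and 80454104 (nearest position at 2710 bp), on chromosome 12 between 107254534 and 107254734 (771 bp), on chromosome 2 between 32020036 and 32020236 (417 bp) and on chromosome 8 between 129391353 and 129391553 (379 bp). The last of these lay 306 bp from another Foxp3 peak. So at 2 of the 7 the surroundings were empty for more than 1 kb, and the others had positions just outside the window or nearby.

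The 296 peaks lay somewhat farther from their next Foxp3 peak than the others did. The median distance between midpoints was 44177 bp, with quartiles of 6076.5 and 258432 bp, against 24878 bp (2696.5 and 159760 bp) for the other Foxp3 peaks. Another Foxp3 peak lay within 10 kb of 98 of the 296 (33.1%, 27.8 to 38.8) and of 1015 others (39.2%, 37.3 to 41.1), with 38.6% over all Foxp3 peaks; these intervals overlapped. Within 500 bp the shares were 7.43% (4.72 to 11.0) and 13.7% (12.4 to 15.1), and within 1 kb 11.8% (8.38 to 16.1) and 18.1% (16.6 to 19.6). Neither of those pairs of intervals overlapped, but the intervals treat peaks as independent, and neighbours count each other. At 100 kb the shares were 63.9% (58.1 to 69.3) and 69.0% (67.1 to 70.7). Part of the gap was fixed by the rule, which left out peaks within 300 bp of a strong position. The shares are cumulative, so a gap that arises within 500 bp is carried to each longer distance. The other Foxp3 peaks lay at a median of 23.5 bp from one. With a strong distance of 200 bp, 36.1% of the peaks then chosen had a next Foxp3 peak within 10 kb, against 38.9% of the others. With 500 bp the shares were 28.3 and 39.6%, so the gap changed with the distance in the rule.

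**Figure D4:**
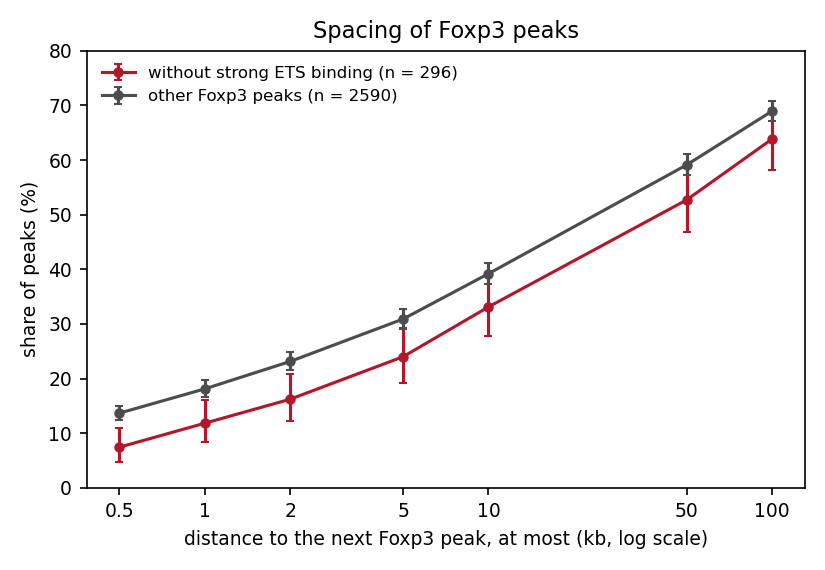
Points give the share of Foxp3 peaks (vertical axis, %) whose next Foxp3 peak lies within the distance on the horizontal axis (kb, log scale), with exact 95% intervals, in red for the 296 peaks without strong ETS binding and in grey for the 2590 others. Red lies below grey at each of the 7 distances, from 7.43 against 13.7% within 0.5 kb to 63.9 against 69.0% within 100 kb, and the intervals overlap from 5 kb on.

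Spacing went with distance from strong binding. Of the 179 peaks with a strong Elf1 or Ets1 position within 10 kb, 51.4% (43.8 to 58.9) had another Foxp3 peak within 10 kb. Of the 117 peaks farther from strong binding, 5.13% (1.90 to 10.8) did, or 6 peaks. This follows in part from the rule, since most Foxp3 peaks have a strong position of their own. The set therefore held both flanks of strongly bound regions and solitary peaks.

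When the next Foxp3 peak was close it mostly had strong ETS binding. Of the 35 peaks with a neighbour within 1 kb, this neighbour had strong binding at 25 (71.4%, 53.7 to 85.4). Among all 2886 Foxp3 peaks, 2590 had strong binding, which is a higher share. The rule bars strong positions within 300 bp of each of the 296 peaks, which by itself can lower the share at close neighbours. Neighbours also count each other, so nothing is read from the difference. Over any distance, the next Foxp3 peak was itself one of the 296 for 43 peaks (14.5%, 10.7 to 19.1), and for the other Foxp3 peaks it was one of the 296 in 9.20% (8.11 to 10.4) of 2588 cases. Of the 296 peaks, 20 (6.76%, 4.18 to 10.2) lay within 10 kb of another of the set, all of them in 10 pairs. The share of all Foxp3 peaks that near to the set was not counted. Where the next Foxp3 peak lay within 10 kb, it was one of the 296 for 14.3% (8.04 to 22.8) of 98 peaks of the set. For the other Foxp3 peaks this was 7.88% (6.30 to 9.71) of 1015. These intervals overlapped, and the difference was not tested. The closest pair was on chromosome 14 between 45660656 and 45661004, where the intervals overlapped.

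The share of Foxp3 peaks without strong ETS binding was similar over the chromosomes. It ran from 6.08% on chromosome 9 (11 of 181; 3.07 to 10.6) to 20% on chromosome 18 (13 of 65; 11.1 to 31.8), and the interval held the overall 10.3% on 19 of 20 chromosomes. Chromosome 18 was the exception, and it was singled out among 20 after the values had been seen. The most peaks lay on chromosome 2, with 29 of 216 (13.4%, 9.18 to 18.7). The 2 Foxp3 peaks on unplaced sequence both had strong binding.

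Chromosome X, poor in Foxp3 peaks, had 4 of its 22 in the set (18.2%, 5.19 to 40.3). All 4 had a weaker Elf1 or Ets1 position and 3 had Cbfb. Over the 296 peaks these shares were 88.5 and 14.2%, and over all Foxp3 peaks 98.8 and 28.1%. Nothing is read from counts among 4 peaks. The first of them, between 7147984 and 7148184, had 51.4-fold Treg Elf1 (rank 33286), 14.0-fold Treg Ets1 (rank 19106), 7.69-fold CD4 Ets1 (rank 12889) and 2.61-fold Cbfb. The second, between 7709210 and 7709410, had the highest Cbfb fold of the set, 23.5, with CD4 Elf1 at 8.28-fold. These peaks are described because the chromosome is sparse in Foxp3 peaks, and they were chosen after their values had been seen.

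**Figure D5:**
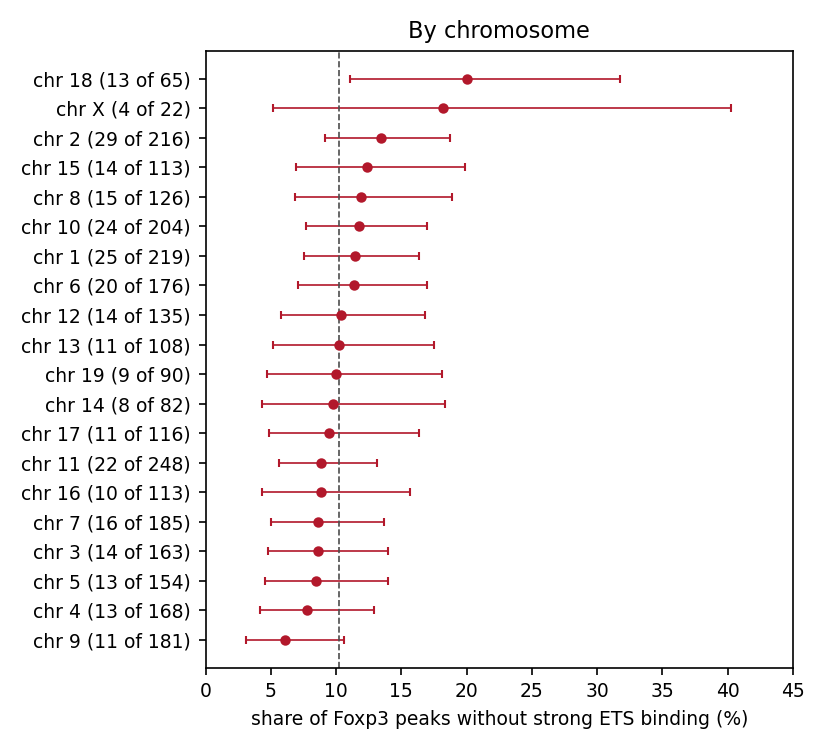
Points give the share of each chromosome's Foxp3 peaks that had no strong ETS binding (horizontal axis, %), with exact 95% intervals, for the 20 chromosomes with more than 1 Foxp3 peak, ordered by share, with both counts beside each name. The dashed line marks the overall share of 10.3%, which lies inside every interval but that of chromosome 18.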

How the data were processed

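Per the submitters' processing notes, alignment used Bowtie 0.12.7 and build mm9. The authors deposited 1 Foxp3 list of 200 bp intervals without a score, pooled from replicates per the labels, and, for each other library, a list of single-base positions. Per the file headers each position has a fold enrichment (a linear ratio), a score and a false discovery rate (FDR), which is a q-value. The caller, the control and the number of reads are not given in the sources used here, so depth is unknown. The 3 Foxp3 and 2 input libraries and the CD4 Cbfb library, among 11 samples in 8 groups, were not analysed here as single libraries.

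Positions were ranked by score within a list. Ties at rank 10000 (143 further Treg Elf1 positions) were broken by file order, and counting all of them as strong also gave 296 peaks. Distances ran from the interval's midpoint, and the highest-scoring position within 300 bp stood for a list. Described peaks, except those on chromosome X, followed rules on rank and distance: nearest and farthest strong position, highest position per list, all 5 lists, no list, closest pair. The chromosome X peaks were chosen after their values had been seen. The members, lists and rules were chosen with earlier results of these data known. Coordinates are those of the files. The gene table at hand is on another build, so peaks carry no gene names, and the planned motif and gene descriptions were not made. Scripts were tested on simulated lists. Alternatives changed the strong list's length and distance, the ranking, the FDR, the window and the neighbour distance. Software was scipy 1.17.1, pandas 2.3.3 and numpy 2.4.6 under Python 3.11.15, and matplotlib 3.10.9 for plots.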

Additional observations from a re-analysis of the deposited data

How the results depend on the processing

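The number of Foxp3 peaks without strong ETS binding depended on how many positions were called strong. It was 763 with 5000 strong positions per list, 105 with 20000 and 1560 with positions ranked by fold enrichment; 296, 105 and 266 of the original 296 were among them. In these 3 cases weaker Elf1 or Ets1 was present at 95.5, 67.6 and 97.9% of the peaks, and in both cell types at 74.4, 22.9 and 87.2%. Chromosome 18 then had shares of 43.1, 10.8 and 64.6%, and chromosome 9 of 27.1, 1.66 and 54.7%. The overall share moved as well, to 763, 105 and 1560 of all 2886 Foxp3 peaks. Chromosome 18 lay above it each time. Chromosome 9 lay below it with 20000 strong positions but not with 5000 or by fold enrichment. Cbfb was present at 31.7% of the other peaks with 5000 strong positions, and by fold enrichment at 24.9% of the chosen and 32.0% of the other peaks. A next Foxp3 peak within 10 kb was found for 27.6% with 20000 strong positions. With an FDR of at most 0.001, all deposited positions, a window of 150 bp, and ranks up to 40000, weaker Elf1 or Ets1 was present at 80.4, 97.0, 82.1 and 82.4% of the 296 peaks, and in both cell types at 37.2, 75, 41.2 and 37.2%. In the same order Cbfb was present at 21.1, 35.5, 24.1 and 20.5% of the other peaks, and at 8.45, 16.9, 12.5 and 7.77% of the 296. With Cbfb positions of at least 4-fold, an alternative chosen like the ranks up to 40000 after seeing the data, the shares were 7.77 and 15.8%. Next Foxp3 peaks lay within 5 kb for 24.0% of the 296 and 30.9% of the others, and within 50 kb for 52.7 and 59.1%. Cbfb was less frequent at the chosen peaks, and the next Foxp3 peak less often near, in each of these settings. Distances of 200 and 500 bp gave 355 and 254 peaks, and left the shares of weaker positions, Cbfb, next Foxp3 peaks and the 2 chromosomes inside their main intervals. The cause of the shifts beyond the changed lists was not tested. No paired analysis was possible because each compared list came from 1 library or from pooled replicates. The number of reads is unknown, so the limit that depth sets on weaker positions cannot be given.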
